A study of Mus musculus with 39 samples.

Results

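The Cyp11a1:Cre line, labelled lrKO, was compared at 2 months of age with wild-type (WT) mice on 12 arrays of whole testis RNA, 4 labelled lrKO and 8 labelled WT, out of 39 arrays in the study. The arrays were taken by their titles, and every probe set with a single gene symbol entered. The lrKO mice carried Cyp11a1:Cre together with homozygous floxed Prkar1a, and the WT mice were littermates. The other groups used below were 4 srKO mice (Amh:Cre with floxed Prkar1a) and 3 prKO mice (Sf1:Cre with floxed Prkar1a) at 2 months, and 4 lrKO and 8 WT mice at 2 weeks. Which allele, if any, the WT littermates carried is not stated in the labels. Biotin-labelled cDNA was hybridised to Affymetrix GeneChip arrays, and all values below are log2 intensities as normalised by the authors, in which a difference of 1 is a 2-fold difference. The tissue labels name whole testis, although the extraction protocol in the labels speaks of the adrenal gland.

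Prkar1a encodes the type 1 alpha regulatory subunit of protein kinase A (PKA), the main kinase that responds to cAMP. The subunit holds the catalytic subunits inactive until cAMP binds, so that cells without it are known to have raised PKA activity. In the testis luteinising hormone acts through cAMP and PKA on Leydig cells, the interstitial cells that take up and make cholesterol and turn it into testosterone. Cyp11a1, the enzyme that cuts the cholesterol side chain, catalyses the first step of all steroid synthesis, and its promoter drives expression in steroid-producing cells. Leydig cells are a small share of an adult testis, most of which is germ cells. In RNA of whole testis, a change in the number of cells of a type and a change in RNA per cell cannot be told apart.

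The median log2 intensity of the arrays lay between 5.87 and 5.89 in lrKO and between 5.81 and 5.92 in WT at 2 months, and across genes the arrays correlated with others of their group at 0.990 or more in lrKO and 0.985 or more in WT. Markers of testis cells were at high levels in both groups. The protamine Prm1 of spermatids lay at 11.40 to 11.78 in lrKO and 11.27 to 11.81 in WT, the germ cell helicase Ddx4 at 11.58 to 11.68 in lrKO and 11.60 to 11.81 in WT, and the Leydig enzyme Cyp17a1 at 11.17 to 11.51 in lrKO and 11.25 to 11.83 in WT. The adrenal cortex genes Cyp11b1 and Cyp11b2 lay at 4.69 to 4.95 and 4.59 to 4.90 in lrKO and at 4.57 to 5.31 and 4.47 to 4.81 in WT, close to the value of 4.62 below which a gene was counted as dim. The WT arrays fell into replicates 1 to 4 and replicates 5 to 8, which differed in 172 of 19007 genes (0.905%; 99 higher and 73 lower in the first set, or 100 and 32 with each array centred on its median), so results are given against each set as well. Adam7, a gene of the epididymis, was above 5 on lrKO replicate 4 (6.40) and on WT replicates 4 (6.11) and 7 (5.62) at 2 months.

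Prkar1a itself was not lower on the arrays labelled lrKO. It had log2 intensities of 8.90, 8.88, 8.86 and 8.88 in lrKO, against 8.61, 8.81, 8.74 and 8.74 in WT replicates 1 to 4 and 8.95, 8.95, 9.00 and 8.96 in WT replicates 5 to 8. All 4 lrKO arrays thus lay above the first WT set and below the second, and the difference from all WT arrays was 0.04 ± 0.08 (standard error, SE, of the log2 difference, as after each ± below; 95% interval -0.13 to 0.20; limma adjusted p = 0.94). The sources used here do not give the exons under the probe set, and Leydig cells are a small share of the whole testis measured. These values therefore do not check the genotype label. The other subunits and inhibitors of PKA did not pass the test either. Of 8 tested genes 0 were called (0.184% of all genes tested were), with a median difference of -0.01, the same as the -0.01 of all genes tested, and the lowest adjusted p was 0.55, for the catalytic subunit Prkacb (-0.19 ± 0.08).

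Across all genes, 35 of 19007 (0.184%) passed an adjusted p of 0.05 in lrKO versus WT at 2 months (limma, Benjamini-Hochberg adjustment over all genes), 21 higher (0.11%) and 14 lower (0.0737%) in testes labelled lrKO. Of these, 9 higher and 4 lower genes had a fitted difference of at least 2-fold. At an unadjusted p under 0.05 there were 1574 genes. In 32 of the 35 genes the 4 lrKO arrays lay wholly outside the range of the 8 WT arrays, as they did in 340 of all genes (1.79%). The called genes included a semaphorin gene next to Cyp11a1, enzymes and carriers of cholesterol and steroid metabolism, a chemokine and several genes of the chromosome that holds the H2 complex. All 35 had the same sign against each WT set, which was fixed in advance for the 32 outside the range of the WT arrays. Both sets are part of the 8 WT arrays that chose the 35 genes, so neither is a separate check. Against WT replicates 1 to 4 alone 133 genes (0.7%) were called and against replicates 5 to 8 alone 22 (0.116%). Of the 35, 25 were called against the first set, 15 against the second, 12 against both and 7 against neither. Leaving out 1 array at a time gave 16 to 38 calls, with 16 without lrKO replicate 2 and 18 without lrKO replicate 3.

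**Figure D1:**
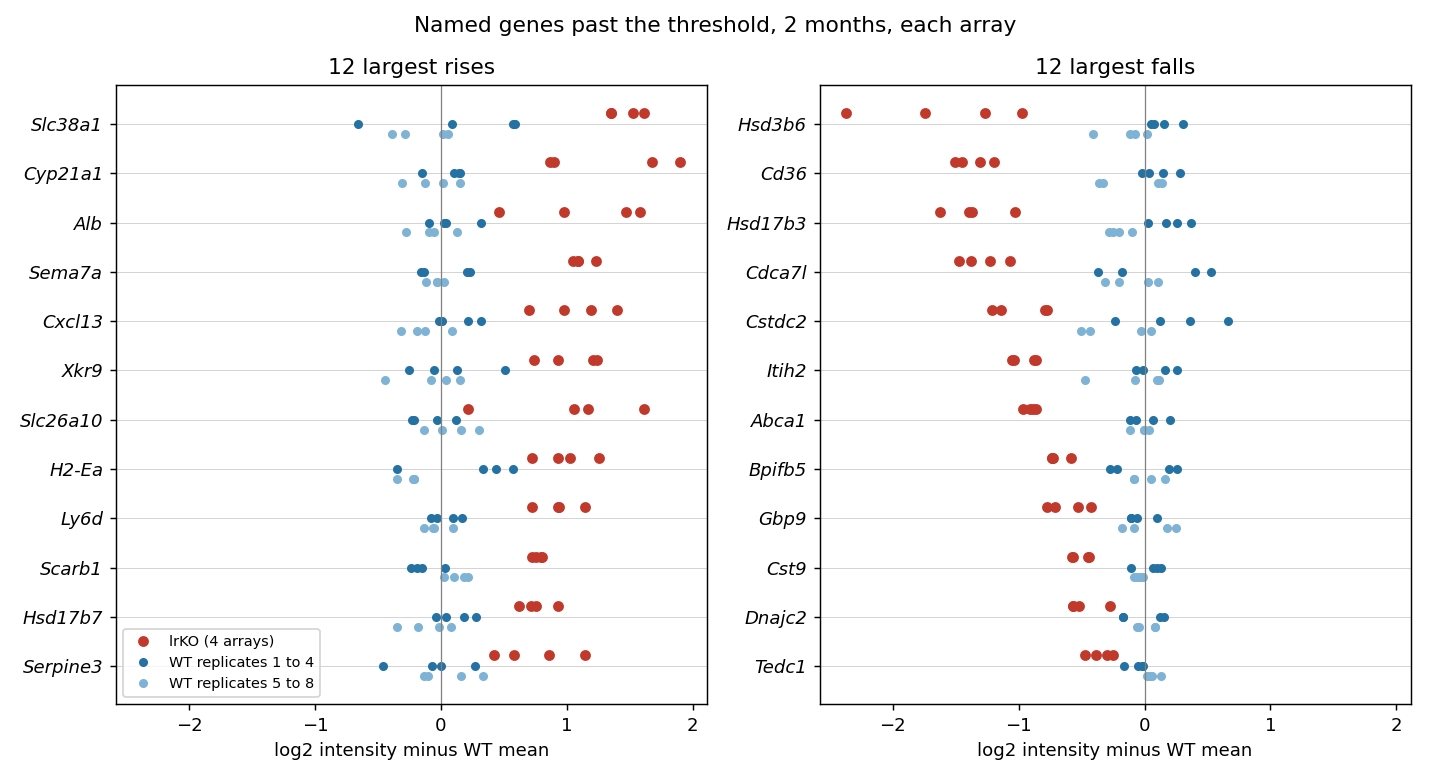
Log2 intensity of each array minus the mean of the 8 WT arrays, for called genes that the naming rule allows, 12 with the largest rise and 12 with the largest fall. Each row is a gene, red points are the 4 arrays labelled lrKO, dark and light blue points are WT replicates 1 to 4 and 5 to 8, and only in Slc26a10 does an lrKO array (6.98) lie within the WT range (6.54 to 7.07).

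Sema7a, which encodes a membrane-anchored semaphorin that signals through plexin C1 and integrins, was called under every setting tried. Its log2 intensity was 9.17, 9.03, 9.02 and 8.99 on the arrays labelled lrKO, against a lowest of 7.78, a median of 7.91 and a highest of 8.17 in WT. The groups did not overlap. The difference was 1.12 ± 0.13 (2.17-fold, 95% interval 0.84 to 1.39, adjusted p = 0.00093), and it was 1.08 against WT replicates 1 to 4 and 1.15 against replicates 5 to 8. Its known receptors did not pass the test, with Plxnc1 at -0.00, Itgb1 at -0.06 and Itga1 at 0.18 (3 tested, 0 called, limma). With 0.184% called over all genes, that count is not a result about the receptors.

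Sema7a is the neighbour of Cyp11a1 in the gene order of the mouse reference (RefSeq, GRCm38.p6), 1 position away. The next gene on the other side of Cyp11a1, Ccdc33, had 9.62, 9.75, 9.65 and 9.76 in lrKO, against 8.83 to 9.51 in WT, also without overlap, but it did not pass the test (0.51 ± 0.14, adjusted p = 0.23). Cyp11a1 itself had 10.42, 10.50, 10.37 and 10.35 in lrKO, against 10.00 to 10.45 in WT, and did not pass either (0.18 ± 0.13, adjusted p = 0.77). A dimmer probe set of Cyp11a1 differed by 0.38. Of the 5 nearest tested protein-coding genes on each side, only Sema7a was called, and the other 9 lay between -0.11 and 0.51. The promoters of these neighbours are shown, from RefSeq (GRCm38.p6, from 250 bases before to 50 bases after the annotated start), because Cre in this line is named for Cyp11a1 and Sema7a is its neighbour. How the Cre allele was made is not given in the labels. Capitals mark TGACG, the core of the cAMP response element that CREB binds, searched on both strands. These letters occur in 20.8% of the 32851 promoters of the same length in the table, so a match describes the sequence and is no sign of binding.

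Sema7a (chr9:57939862-57940161, plus strand): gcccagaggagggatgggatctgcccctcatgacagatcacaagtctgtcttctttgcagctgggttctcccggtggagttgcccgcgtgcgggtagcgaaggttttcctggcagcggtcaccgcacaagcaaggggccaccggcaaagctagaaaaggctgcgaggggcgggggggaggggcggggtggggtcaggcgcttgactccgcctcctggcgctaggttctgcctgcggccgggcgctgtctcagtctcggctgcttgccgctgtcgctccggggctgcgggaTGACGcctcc
Cyp11a1 (chr9:57997774-57998073, plus strand, the first of its listed starts): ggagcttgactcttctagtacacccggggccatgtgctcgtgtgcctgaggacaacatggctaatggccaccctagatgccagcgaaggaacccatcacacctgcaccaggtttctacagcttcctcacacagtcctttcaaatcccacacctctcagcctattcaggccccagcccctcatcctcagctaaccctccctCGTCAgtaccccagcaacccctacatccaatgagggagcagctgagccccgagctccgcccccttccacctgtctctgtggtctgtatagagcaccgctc

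In Sema7a the match lies 40 bases after the start, on the gene's own strand. In Cyp11a1 it begins at -50, counted from the start, and lies on the opposite strand, so that it reads CGTCA.

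Among the steroidogenic enzymes, both called genes were lower in testes labelled lrKO, and both are known from testosterone synthesis in adult Leydig cells. Hsd17b3, which turns androstenedione into testosterone, had 8.40, 8.04, 8.06 and 7.81 in lrKO, against a lowest of 9.15, a median of 9.40 and a highest of 9.80 in WT. The groups did not overlap, and the fall was 1.35 on the log2 scale (-1.35 ± 0.19, adjusted p = 0.0017). It was -1.56 against WT replicates 1 to 4 (adjusted p = 0.0054) and -1.15 against replicates 5 to 8 (adjusted p = 0.075). Hsd3b6, the 3-beta-hydroxysteroid dehydrogenase of mature mouse Leydig cells, had 9.12, 8.36, 7.73 and 8.83 in lrKO, against 9.69 to 10.40 in WT, with a difference of -1.59 ± 0.28 (adjusted p = 0.012). The call was lost without lrKO replicate 2 or 3. With WT replicates 5 to 8 as the comparison it was lost too (-1.44, adjusted p = 0.23).

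The other tested genes of the list did not pass the test. Of 9 tested steroidogenic genes 0 rose and 2 fell (0.184% of all genes tested were called), with a median difference of -0.16 against -0.01 for all genes. The median was -0.23 with 2 lower against WT replicates 1 to 4, and -0.04 with 0 called against replicates 5 to 8. All 9 genes were fitted higher in the first WT set than in the second. Star, which carries cholesterol into mitochondria, had 9.68, 9.48, 9.60 and 9.51 in lrKO, level with WT replicates 1 to 4 (9.64, 9.35, 9.74 and 9.62) and above replicates 5 to 8 (9.08, 8.70, 8.64 and 8.60). Its difference was -0.02 from the first WT set and 0.82 from the second, neither called (adjusted p = 0.99 and 0.15). Fdx1, the electron donor of mitochondrial steroid enzymes, lay at 7.59 to 7.81 in lrKO and 7.07 to 7.45 in WT without overlap (0.54 ± 0.15, adjusted p = 0.26). Cyp17a1, which makes androgen precursors, differed by -0.23 and Hsd3b1, the isoform also made in fetal Leydig cells, by -0.16. The mean of the list per array was 8.06 to 8.29 in lrKO and 8.18 to 8.66 in WT.

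Of 11 tested genes of Leydig cell identity 0 passed, which at 0.184% called over all genes is not a result about the list. Its median was -0.03. Lhcgr, Insl3 and Prlr, also on the list, had no probe set with a single symbol and were not tested. Nr5a1, the transcription factor that switches on steroid genes, differed by -0.06 ± 0.13. Vcam1, an adhesion molecule of adult Leydig cells, came nearest at 8.36, 8.32, 8.28 and 8.49 in lrKO, against 8.67 to 9.09 in WT (-0.54 ± 0.14, adjusted p = 0.16). Klk1b22 lay just outside the threshold, with a difference that was large but varied among WT arrays. It belongs to the tissue kallikrein family, whose members in mouse testis are known from Leydig cells, and its close paralogs could share signal with its probe set. It had 5.29, 5.07, 4.95 and 4.69 in lrKO, against a lowest of 6.83, a median of 7.46 and a highest of 9.11 in WT, with a difference of -2.68 ± 0.55 (adjusted p = 0.056). The WT arrays had an SD of 0.75, and the gene was called against WT replicates 1 to 4 (-3.22, adjusted p = 0.040) but not against 5 to 8 (-2.13, adjusted p = 0.50).

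Among genes of cholesterol synthesis, uptake and storage, the uptake receptor Scarb1 rose and the exporter Abca1 fell in testes labelled lrKO. Of 19 tested genes 1 rose (Scarb1) and 1 fell (Abca1), against 0.11% and 0.0737% of all genes tested. In 17 of 19 the difference was above 0 (89.5%, against 47% of all genes tested). The median difference was 0.20 against -0.01 for all genes. An unadjusted limma p under 0.05 was found in 11 of the 19, and in 1574 of the 19007 genes tested. That count was 6 of the 19 against WT replicates 1 to 4 and 13 against replicates 5 to 8. Over all genes it was 2549 and 1045. The mean of the list per array was 8.34 to 8.45 in lrKO and 8.05 to 8.29 in WT, without overlap. The list was chosen with earlier results of these data known, so its counts are a description.

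Scarb1, the receptor that takes up cholesterol esters from high-density lipoprotein in steroid-producing cells, had 10.12, 10.11, 10.07 and 10.04 in lrKO, against 9.08 to 9.53 in WT. The lrKO arrays were all above WT, by 0.77 ± 0.13 (1.71-fold, adjusted p = 0.012), though the call was lost with only WT replicates 5 to 8 (0.64, adjusted p = 0.23). Hsd17b7, which was not on the list, reduces a 3-keto group in cholesterol synthesis and also acts on oestrogens. It had 6.94, 6.63, 6.76 and 6.72 in lrKO, against 5.66 to 6.28 in WT, a rise of 0.76 ± 0.11 (adjusted p = 0.0035) that was called against both WT sets. Dhcr7, which makes cholesterol in the last step of its synthesis, had 8.60, 8.48, 8.46 and 8.42 in lrKO, against 7.62 to 7.98 in WT, without overlap (0.67 ± 0.15, adjusted p = 0.081). Msmo1, a sterol methyl oxidase of the same pathway, had 7.61, 7.49, 7.40 and 7.33 in lrKO, against 6.58 to 7.14 in WT (0.58 ± 0.12, adjusted p = 0.061). Neither passed the threshold. The next genes of the list were Insig1, a brake on sterol synthesis (0.37), Hmgcs1, which feeds the pathway (0.32), and Fdps, which makes farnesyl diphosphate (0.30), none of them called.

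Abca1, which pumps cholesterol out of cells to apolipoproteins, differed little among the lrKO arrays. It had 7.78, 7.83, 7.73 and 7.80 in lrKO, against a lowest of 8.57, a median of 8.68 and a highest of 8.89 in WT. The groups did not overlap, and the difference was -0.90 ± 0.12 (adjusted p = 0.00095), with -0.93 against WT replicates 1 to 4 and -0.88 against replicates 5 to 8. The call held under every setting tried. Cd36, a scavenger receptor for long-chain fatty acids and oxidised lipoproteins, was not on the cholesterol list. It had 5.83, 6.14, 6.03 and 5.89 in lrKO, against 6.98 to 7.62 in WT (-1.36 ± 0.22, adjusted p = 0.0089). With WT replicates 5 to 8 as the only comparison it missed the threshold (-1.25, adjusted p = 0.19).

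**Figure D2:**
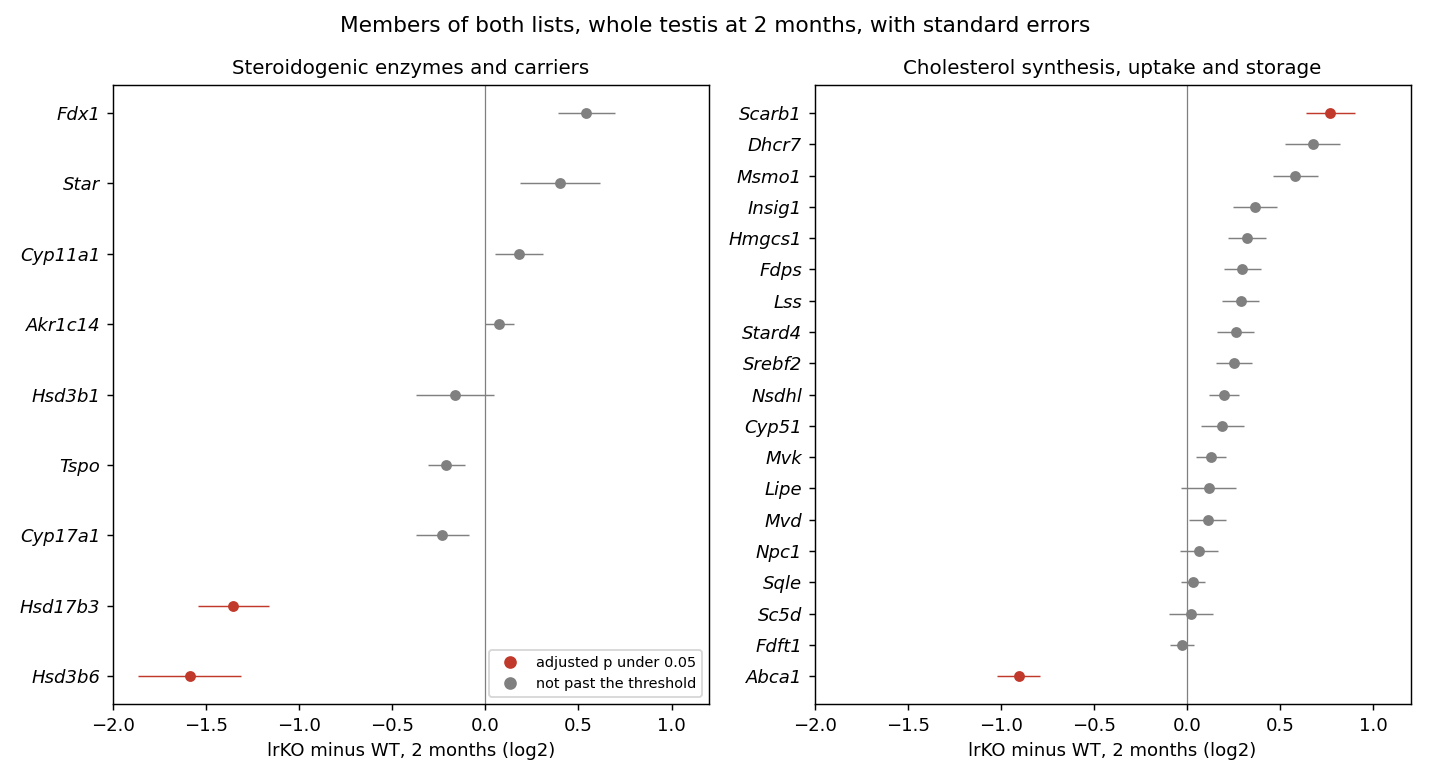
Log2 difference of lrKO from WT at 2 months (points, bars are the standard error) for the 9 tested steroidogenic genes and the 19 tested genes of cholesterol synthesis, uptake and storage, with called genes in red. Hsd3b6 (-1.59) and Hsd17b3 (-1.35) stand apart on the low side of the first list, and in the second Scarb1 (0.77) is at the top and Abca1 (-0.90) at the bottom.

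The promoters of Hsd17b7 and Hmgcs1 are printed because Hsd17b7 was called against all WT arrays and against both WT sets, and Hmgcs1 was the 1 gene, of 15 on the cholesterol list with a promoter in the table, whose window holds the letters TCACNCCAC of the element of the sterol-sensing factor SREBP. These letters and AAGGTCA, the core of the Nr5a1 site, were searched on both strands and occur in 1.24% and 4.72% of all promoters in the table. Capitals mark any of the 3 motifs.

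Hsd17b7 (chr1:169969156-169969455, minus strand): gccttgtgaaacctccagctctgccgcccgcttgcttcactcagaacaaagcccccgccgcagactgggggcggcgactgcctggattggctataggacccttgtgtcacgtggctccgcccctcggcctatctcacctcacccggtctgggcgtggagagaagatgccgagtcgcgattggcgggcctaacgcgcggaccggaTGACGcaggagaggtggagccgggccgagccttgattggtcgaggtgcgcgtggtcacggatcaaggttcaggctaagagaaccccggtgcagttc
Hmgcs1 (chr13:119690101-119690400, plus strand): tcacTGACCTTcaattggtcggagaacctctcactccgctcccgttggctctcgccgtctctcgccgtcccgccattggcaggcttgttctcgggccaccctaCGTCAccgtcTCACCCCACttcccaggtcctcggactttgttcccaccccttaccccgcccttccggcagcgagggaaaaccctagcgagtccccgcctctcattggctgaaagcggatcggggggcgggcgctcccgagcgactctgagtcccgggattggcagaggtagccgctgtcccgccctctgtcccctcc

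In Hsd17b7 the match is TGACG at -46. In Hmgcs1 the match to TCACNCCAC begins at -137 on the gene's own strand, and TGACG and AAGGTCA lie on the opposite strand, beginning at -147 and -246.

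Among the other rises, Slc38a1 had the largest difference of the genes that the naming rule allows, which passes over olfactory receptors such as Olfr63. It encodes a sodium-coupled transporter of glutamine and had 7.64, 7.47, 7.73 and 7.47 in lrKO, against a lowest of 5.46, a median of 6.16 and a highest of 6.71 in WT. The rise was 1.46 ± 0.26 (2.75-fold, adjusted p = 0.013). WT varied more than lrKO, and the gene missed the threshold with only WT replicates 1 to 4 (1.31, adjusted p = 0.073) and when lrKO replicate 1, 2 or 3 was left out. Cyp21a1, the 21-hydroxylase of the adrenal cortex, had 5.44, 6.25, 6.47 and 5.48 in lrKO, against 4.27 to 4.73 in WT. The lrKO arrays were all higher but fell into a lower pair (replicates 1 and 4) and a higher pair, and the difference was 1.34 ± 0.26 (adjusted p = 0.034). It lay close to the threshold and was lost in 13 of 25 alternatives. Of 4 tested adrenal cortex genes it was the only one called, against 0.184% called over all genes. That the others were not called is therefore no result about them. Mrap, the partner of the melanocortin receptors, lay at 7.83 to 7.99 in lrKO and 7.36 to 7.78 in WT without overlap (0.36 ± 0.17, adjusted p = 0.61), and Cyp11b1 and Cyp11b2 differed by 0.00 and 0.04. The part of adrenal tissue in the Cyp21a1 value was not tested.

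Alb, the serum albumin gene, had 5.84, 6.45, 6.33 and 5.33 in lrKO, against 4.59 to 5.18 in WT, and rose by 1.12 ± 0.15 (adjusted p = 0.0011). Replicate 4 was the lowest lrKO array but still above all WT arrays. Cxcl13, a chemokine that attracts B cells, had 7.00, 6.51, 7.20 and 6.78 in lrKO, against 5.49 to 6.12 in WT (1.07 ± 0.15, adjusted p = 0.0017). Genes of lymphocytes and mast cells (4 tested) and of macrophages and antigen presentation (16 tested) gave 0 calls, with medians of -0.08 and 0.01. At 0.184% called over all genes, these counts say nothing particular about such cells. Xkr9, of a family of phospholipid scramblases, was dim in WT at 3.69 to 4.64 and had 5.37, 5.34, 5.06 and 4.87 in lrKO (1.03 ± 0.13, adjusted p = 0.00095). Alb and Xkr9 were called under every setting in which they were tested, and Cxcl13 under all but the replicate block.

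Slc26a10, of the SLC26 anion transporter family, had 8.38, 7.83, 7.94 and 6.98 in lrKO, against 6.54 to 7.07 in WT, so that replicate 4 lay within the WT range (1.02 ± 0.17, adjusted p = 0.0089). Ly6d, a glycolipid-anchored surface protein known from B-cell precursors, had 6.91, 7.12, 7.11 and 7.32 in lrKO, against 6.05 to 6.35 in WT (0.94 ± 0.16, adjusted p = 0.012). It was called against neither WT set alone. Serpine3, a serpin-family gene, was dim in WT (4.04 to 4.83) and had 5.64, 5.36, 5.08 and 4.92 in lrKO (0.75 ± 0.13, adjusted p = 0.013). Xkr9, Serpine3, Cyp21a1, Chrm5, Olfr944 and Olfr1010 had a WT mean below 4.62 and entered the test through a group in which they were higher. Their log2 differences depend on values at the dim end of the arrays. With WT arrays below 4.62 set to that value, lrKO was higher by at least 1.24 on the log2 scale for Cyp21a1, 0.58 for Serpine3, 0.54 for Xkr9, 0.50 for Olfr944, 0.40 for Olfr1010 and 0.05 for Chrm5. The remaining rises with a gene name of known family were Cyp4f16, a cytochrome P450 of fatty acid oxidation (0.71 ± 0.10), Ces2g, a carboxylesterase (0.55 ± 0.09), and Chrm5, a muscarinic acetylcholine receptor (0.48 ± 0.09).

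Among the other falls, Cdca7l and Itih2 were called under every setting tried. Cdca7l, a gene whose protein binds MYC, had 6.32, 6.63, 6.47 and 6.22 in lrKO, against a lowest of 7.32, a median of 7.62 and a highest of 8.23 in WT. All lrKO arrays were below all WT arrays, by -1.29 ± 0.16 (adjusted p = 0.00095). Itih2, a heavy chain of the inter-alpha-trypsin inhibitors that bind hyaluronan, had 6.19, 6.00, 6.18 and 6.02 in lrKO, against 6.58 to 7.31 in WT (-0.96 ± 0.12, adjusted p = 0.00096). Its lowest WT value was that of replicate 8, with the next at 6.98. Dnajc2, a ribosome-bound co-chaperone, lay at 9.80 to 10.09 in lrKO and 10.20 to 10.52 in WT (-0.48 ± 0.07, adjusted p = 0.0041). It was called against both WT sets but not when the arrays above 5 in Adam7 were left out.

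Cst9 (testatin), a cystatin-like gene of Sertoli cells, had 9.92, 9.92, 9.80 and 9.79 in lrKO, against 10.26 to 10.50 in WT. The groups did not overlap, and the difference was -0.51 ± 0.08 (adjusted p = 0.0091). It was the 1 call among 21 tested Sertoli cell genes, whose median was 0.01, against 0.184% called over all genes. Sox9, which directs Sertoli cell fate, lay at 8.00 to 8.23 in lrKO and 7.92 to 8.33 in WT (0.06 ± 0.12). Cstdc2, another cystatin-domain gene, had 5.19, 5.12, 5.54 and 5.56 in lrKO, against 5.83 to 6.99 in WT (-0.98 ± 0.18, adjusted p = 0.019). Bpifb5, of the BPI-fold family, lay at 6.62 to 6.77 in lrKO and 7.08 to 7.61 in WT (-0.70 ± 0.12, adjusted p = 0.012). Gbp9, an interferon-induced GTPase family member, lay at 5.20 to 5.55 in lrKO and 5.80 to 6.23 in WT (-0.61 ± 0.11, adjusted p = 0.012). Of 8 tested interferon response genes 0 were called (median -0.09), which at 0.184% called over all genes is not a result about the list. Tedc1, of a tubulin complex at centrioles, was the called gene nearest to the threshold (-0.35 ± 0.07, adjusted p = 0.036) and was lost in 16 of 25 alternatives.

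Most cell and pathway lists held no called gene. At the 0.184% called over all genes, lists of this size would be expected to hold about 0, so these counts say nothing particular about the cell types. There were 0 calls among 17 tested spermatogonial, 22 meiotic and 21 spermatid genes, with medians of -0.02, -0.08 and 0.07. Likewise 0 were called among 8 peritubular myoid, 10 endothelial and 19 extracellular matrix genes (medians -0.03, -0.05 and -0.14), 4 androgen-dependent Sertoli genes (0.06), 16 cAMP phosphodiesterases (-0.04) and 14 clock genes (-0.02). Epididymis (6 tested), adipose (5 tested) and reference genes (9 tested) also gave 0 calls, with medians of 0.00, -0.10 and -0.02. The reference genes were not all near their median. B2m lay lowest (-0.70 ± 0.20, limma adjusted p = 0.26) and Gusb highest (0.27 ± 0.10, adjusted p = 0.45), and 2 of the 9 were above 0. Of 20 tested cAMP and CREB target genes 0 passed, though 15 lay above 0 (median 0.13). Nr4a1, a nuclear receptor gene induced by cAMP, lay at 8.89 to 9.40 in lrKO and 8.37 to 9.13 in WT (0.45 ± 0.14, adjusted p = 0.34). Of 11 mitotic cell cycle genes 0 passed and 1 lay above 0 (median -0.13), and the list's mean per array was 8.52 to 8.64 in lrKO and 8.63 to 8.78 in WT. None of the 5 red blood cell genes was tested.

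Several genes of chromosome 17, near the H2 complex of antigen-presenting genes, followed the WT replicates as well as the line. Of the 35 genes called against all WT arrays 4 (11.4%; Olfr63, H2-Ea, Cyp4f16 and Cyp21a1) lay on chromosome 17, against 4.8% of all genes tested. Of the 22 called against WT replicates 5 to 8 alone, 9 (40.9%) lay there, and of the 133 called against replicates 1 to 4, 10 (7.52%). Olfr63, an olfactory receptor gene named after its values were seen, had 7.11, 6.90, 6.98 and 6.70 in lrKO. WT replicates 1, 2 and 3 had 5.75, 5.46 and 6.12, and WT replicates 4 to 8 lay at 3.99 to 4.23. H2-Ea, which encodes a class II alpha chain and is known to be expressed in some inbred mouse strains and not in others, had 5.97, 6.07, 6.30 and 5.77 in lrKO. WT replicates 1, 2 and 3 had 5.37, 5.48 and 5.61, and WT replicates 4 to 8 lay at 4.69 to 4.83.

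The same WT arrays stood apart in further genes of the region, also picked after their values were seen. H2-K1, a class I gene, had 7.73, 7.49, 7.47 and 7.46 in lrKO. WT replicates 1, 2 and 3 had 7.84, 7.75 and 7.69, and WT replicates 4 to 8 lay at 8.06 to 8.47, so that here the lrKO arrays and the first 3 WT arrays were low. Rps28, a ribosomal protein gene, had 9.22 to 9.37 in lrKO, 9.35, 9.49 and 9.55 in WT replicates 1, 2 and 3, and 9.81 to 10.09 in the other WT arrays. Cyp4f16 and Cyp21a1 lie in the same stretch of gene order, 48 positions before and 38 positions after H2-K1. In neither did WT replicates 1 to 3 stand apart. Cyp4f16 lay at 5.88 to 6.31 in lrKO and 5.46 to 5.68 in these 3 WT arrays, with 5.18 to 5.57 in the other WT arrays. The strain background of the animals is not given in the labels, and its part in these values was not tested.

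**Figure D3:**
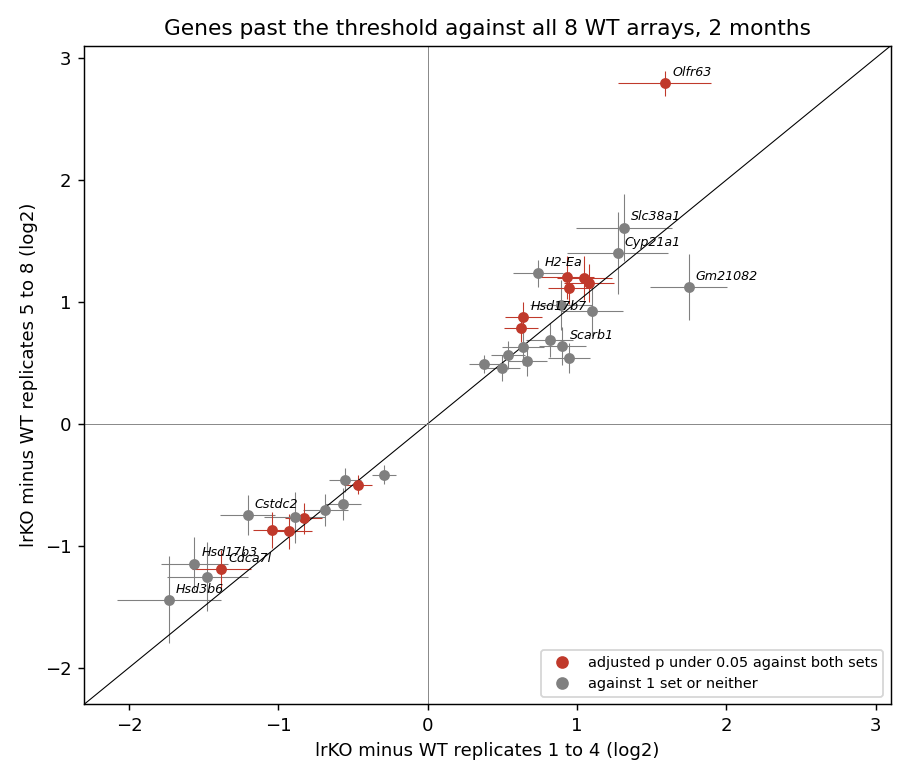
Log2 difference of lrKO from WT replicates 1 to 4 (x) and from WT replicates 5 to 8 (y) for the 35 called genes, with standard errors and the line of equality. All points lie in the lower left or upper right, which was fixed for the 32 genes whose lrKO arrays lay outside the WT range. In red are the 12 with a limma adjusted p under 0.05 against both sets. Olfr63 lies at 1.59 and 2.79, and for this gene the 4 arrays of the second WT set are below the dim limit of 4.62. Its second value is plotted as fitted and is at least 2.30 with those arrays set to the limit.

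The 2-week testis, which does not yet hold spermatids, gave the same comparison at an earlier age. In lrKO versus WT 19 genes (0.1%) were called at 2 weeks, and 3 were called at both ages in the same direction, Sema7a, Cst9 and Gm4846. Sema7a had 10.30, 10.45, 10.63 and 10.58 in lrKO at 2 weeks, against 9.25 to 9.51 in WT. Its rise was 1.10 ± 0.08 at 2 weeks and 1.12 ± 0.13 at 2 months, and the change between ages was 0.02 ± 0.15 (limma adjusted p = 0.99). Ccdc33 differed by 0.85 ± 0.18 at 2 weeks (adjusted p = 0.075), and Cyp11a1 by -0.17 ± 0.18 (adjusted p = 0.76). Cst9 at 2 weeks had 9.47, 11.24, 9.44 and 9.44 in lrKO, against 11.47 to 11.76 in WT. Replicate 2 lay near the WT arrays while the other 3 were far lower, and the fall of 1.67 on the log2 scale at 2 weeks was larger than at 2 months (difference between ages 1.17 ± 0.25, adjusted p = 0.046).

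The change in lrKO differed between the ages in 19 genes (0.1%), 10 with a higher (0.0526%) and 9 with a lower change (0.0474%) at 2 months. Of the 35 genes called at 2 months 14 were among them. The change between ages contains the 2-month difference that chose the 35, so part of this overlap is built in. Leaving out 1 array gave 11 to 20 such genes, with 11 without lrKO replicate 3 at 2 weeks and 12 without lrKO replicate 1 at 2 weeks or lrKO replicate 2 or 3 at 2 months. Alb, Cxcl13, Xkr9, Slc26a10, H2-Ea, Scarb1 and Hsd17b7 were higher at 2 months and lay within -0.15 to 0.08 of WT at 2 weeks. Abca1, Cdca7l and Dnajc2 were lower at 2 months and lay within -0.04 to 0.03 of WT at 2 weeks. Abca1 had 9.92, 10.17, 10.03 and 9.74 in lrKO at 2 weeks, against 9.90 to 10.14 in WT. Cd36 differed by 0.27 ± 0.24 at 2 weeks and -1.36 ± 0.22 at 2 months (change between ages -1.63 ± 0.34, adjusted p = 0.039). For Hsd17b3 (-0.30 at 2 weeks) and Hsd3b6 (0.01 at 2 weeks) the change between ages was -1.05 ± 0.32 and -1.60 ± 0.55 and did not pass the test (adjusted p = 0.35 and 0.47). Klk1b22 was near the dim limit at 2 weeks, at 4.43 to 4.84 in lrKO and 4.10 to 4.96 in WT, and its change between ages was -2.85 ± 0.60 (adjusted p = 0.039). Gabbr1, a GABA receptor gene, was called at 2 weeks (0.79 ± 0.15) and lay at -0.01 ± 0.08 at 2 months.

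**Figure D4:**
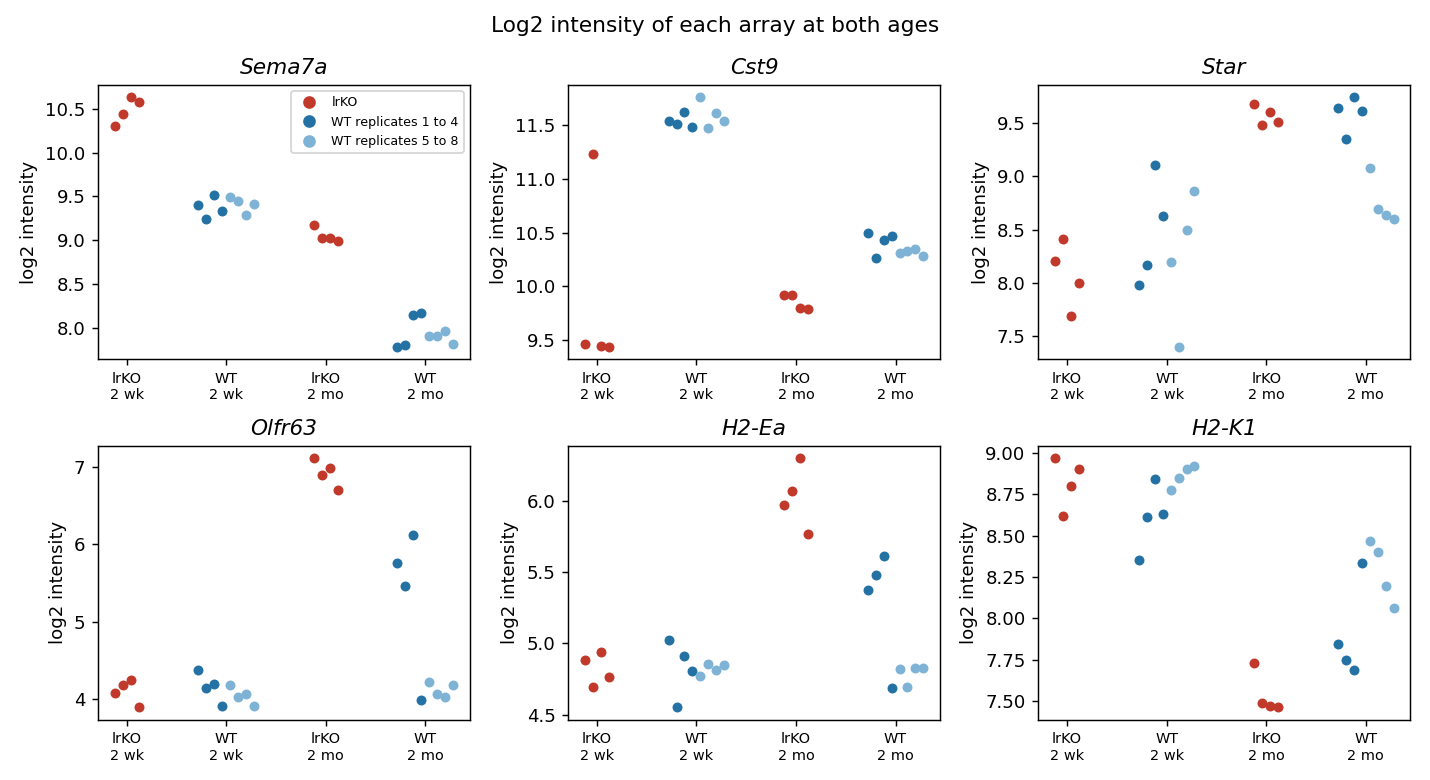
Log2 intensity of each array at 2 weeks and 2 months for 6 genes, with lrKO in red and WT replicates 1 to 4 and 5 to 8 in dark and light blue. Sema7a is above WT at both ages and Cst9 below it, Star follows the WT sets at 2 months, Olfr63 and H2-Ea are low on every array at 2 weeks and higher at 2 months in lrKO and in 3 WT arrays, and H2-K1 is low in those same 3 arrays.

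The other 2 lines, with Amh:Cre (srKO) and Sf1:Cre (prKO), differed from WT in more genes, 4837 (25.4%) in srKO and 9206 (48.4%) in prKO. Compared directly, lrKO differed from srKO in 5072 genes (26.7%), 2136 higher (11.2%) and 2936 lower (15.4%) in lrKO, and from prKO in 8660 (45.6%), 3824 higher (20.1%) and 4836 lower (25.4%). These comparisons of lines with WT share the same 8 WT arrays, and those of lrKO with srKO and prKO share the 4 lrKO arrays that chose the 35 genes. The largest named difference in both was that of Prnd, which encodes the prion-like protein doppel of sperm and was higher in lrKO by 3.84 than in srKO and by 4.21 than in prKO. Of 21 tested spermatid genes 16 were higher in lrKO than in srKO (median 0.87) and 20 than in prKO (median 1.05). Of 19 tested matrix genes 11 were lower than in srKO (median -0.77) and 19 than in prKO (median -1.86).

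Slc38a1 and Cyp21a1 were above WT in every line. Slc38a1 differed by 1.46 in lrKO, 2.35 in srKO and 2.18 in prKO, and Cyp21a1 by at least 1.24 in lrKO, 1.73 in srKO and 3.28 in prKO with WT arrays below 4.62 set to that value, all called. Scarb1 followed with 0.77 in lrKO, 0.52 in srKO and 1.28 in prKO, and Hsd3b6 was below WT in each line (-1.59 in lrKO, -1.17 in srKO and -3.15 in prKO). Sema7a was also called in the other lines, at 0.47 in srKO and 0.85 in prKO. It was higher in lrKO than in srKO (0.64 ± 0.15, adjusted p = 0.0033) and did not differ past the threshold from prKO (0.26 ± 0.16, adjusted p = 0.20).

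Some other genes lay on opposite sides of WT in lrKO and in another line. Abca1 was -0.90 from WT in lrKO but 1.30 in srKO and 0.70 in prKO, and the difference of lrKO from srKO was -2.20 ± 0.13 (adjusted p = 6.7e-09). Hsd17b3 was -1.35 in lrKO and 0.92 in srKO, both called, and 0.16 in prKO, not called, with lrKO below srKO by -2.28 ± 0.22 (adjusted p = 6.2e-07). Gbp9 was -0.61 in lrKO, 0.53 in srKO and 0.33 in prKO. Cd36 was -1.36 in lrKO, -0.19 in srKO and 0.84 in prKO. Alb, Xkr9 and Itih2 passed the test against WT in lrKO and in neither other line, and each also differed between lrKO and both other lines. Alb, for example, was 1.14 ± 0.17 higher in lrKO than in srKO (adjusted p = 6e-05) and 0.86 ± 0.19 higher than in prKO (adjusted p = 0.00083). The comparisons of lrKO with the other lines reuse the lrKO arrays that chose these genes. Xkr9 had a WT mean of 4.13, below 4.62, and entered the test through a group in which it was higher. With WT arrays below 4.62 set to that value, its rise in lrKO was at least 0.54. Cxcl13, Hsd17b7 and Ly6d were lower in lrKO than in prKO, by -1.19, -1.20 and -1.66, while prKO lay 2.25, 1.96 and 2.59 above WT.

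**Figure D5:**
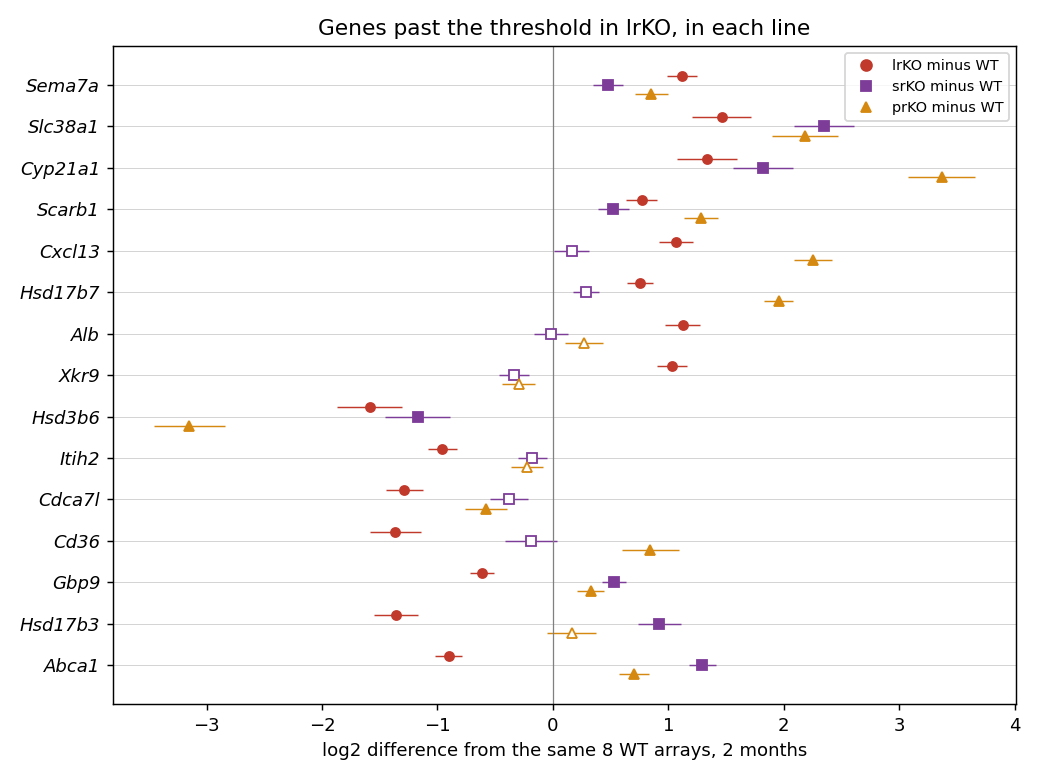
Log2 difference from the same 8 WT arrays at 2 months for 15 of the called genes in lrKO (circles), srKO (squares) and prKO (triangles), with standard errors, filled where the adjusted p is under 0.05. Abca1 and Gbp9 are left of 0 in lrKO and right of it in both other lines, and Slc38a1 and Cyp21a1 are right of 0 in every line.

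The threshold itself fell within a run of close values. The called genes nearest to it were Tedc1, Gm4846 and Cyp21a1, with adjusted p of 0.036, 0.036 and 0.034, and just outside lay AY512931 (0.50, adjusted p = 0.055) and Klk1b22 (-2.68, adjusted p = 0.056). Next came 6 genes tied at an adjusted p of 0.061. They were Lcn2, which encodes a siderophore-binding lipocalin (-0.63), Lsm14a (-0.37), Msmo1 (0.58), Olfr303 (0.45), Dda1 (0.43) and Tm7sf2, a sterol reductase of cholesterol synthesis that was not on the list (0.35).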

How the data were processed

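RNA of whole testis was measured on 39 Affymetrix arrays of 8 groups, taken from the sample titles. The deposited values are log2 intensities per probe set, normalised by the authors with RMA per the submitters' processing notes. The sources used here do not give its version, its settings or the array's genome build. Arrays give no read depth, so their number limits the precision. Values lay between 2.54 and 13.62, 0 arrays were identical to another, and all 39 columns were used.

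Of 41345 probe sets, 23521 had 1 gene symbol in the annotation of the array, 1814 several and 16010 none. Only the first class was tested by gene. Entrez identifiers of 23328 of them matched the RefSeq gene table, which changed 0 symbols. Of 22180 genes, 1082 had more than 1 probe set, and the one with the highest mean was used. A gene was tested where its highest group mean lay above 4.62, the 25th percentile of all values. This kept 19007 genes, and the values were not normalized again.

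Differences were fitted in R 4.3.3 with limma 3.58.1 (lmFit, then eBayes), tested on simulated data first. The 4 genotypes at 2 months were fitted together, and all 8 groups for the change between ages. For comparisons of lrKO with a single WT set, the WT arrays of the other set were left out of the fit. WT replicates 1 to 4 and 5 to 8 were separate groups only where they were compared with each other. P-values are two-sided, adjusted over all genes (Benjamini-Hochberg) and called below 0.05. Lists (25, with 329 genes, 285 tested) are described by counts and medians without a test of the list. The arrays, the lists and the tests were chosen with earlier results of these data known. Named genes were Prkar1a, Cyp11a1 and its 5 nearest tested protein-coding genes per side, the 12 largest rises and 12 largest falls, up to 12 genes called against all WT arrays and both sets, 5 rises and 5 falls of other comparisons and up to 4 per list. Clone and model names and olfactory receptors were passed over there. Other genes are named as single list members or were chosen after their values were seen. Positions in gene order and promoters are from RefSeq (GRCm38.p6).

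Alternatives changed the filter (none, or 5.94, the 50th percentile, with 14854 genes), the probe sets (averaged), the scaling (a second quantile normalization, or centring on each array's median), the fit (array weights, eBayes with trend and robust, the compared groups only, all 8 groups, a block on replicate number) and the samples (each WT set alone, each array left out). A fit without the arrays above 5 in Adam7 was added after seeing the data. Replicate numbers did not pair the samples.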

Additional observations from a re-analysis of the deposited data

Results flagged for a closer look

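Arrays that stood apart within their group of 4 or 8, by the size of their gap to the nearest array, were found in 18 of 254 groups checked, and chance alone gives about 1 in 20. Among called genes, Itih2 was low on WT replicate 8 (6.58), Bpifb5 high on lrKO replicate 1 (6.77), Dnajc2 high on lrKO replicate 3 (10.09), Cyp4f16 low on lrKO replicate 1 (5.88) and Ces2g low on lrKO replicate 3 (5.81). In each of Itih2, Bpifb5, Dnajc2 and Cyp4f16 the array that stood apart still lay on its own group's side of the gap between lrKO and WT, whereas Ces2g on lrKO replicate 3 reached the highest WT array. Among genes of other tissues, Adam7 of the epididymis was high on lrKO replicate 4 (6.40), Plin1 of fat cells on WT replicate 1 (6.39), Cyp11b1 of the adrenal cortex on WT replicate 1 (5.31) and Ptgs2, a prostaglandin synthase, on WT replicate 4 (8.44, with all other WT arrays at 4.07 to 4.30). The smooth muscle gene Myl9 was high on WT replicate 4 (9.38) and the collagen Col3a1 on WT replicate 7 (7.99). The remaining such values were Ret on lrKO replicate 3 (5.84), Dazl on lrKO replicate 2 (10.70), Ctss on lrKO replicate 4 (7.03), Kdr on lrKO replicate 1 (6.65), Cd163 on WT replicate 8 (4.65), Gusb on WT replicate 8 (6.40) and Gapdh on WT replicate 2 (10.62).

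The change in lrKO at 2 months minus that at 2 weeks passed the test in 15 genes named in the report (limma, adjusted p 0.0013 to 0.046). It was positive for Olfr63 (2.19), Alb (1.15), Cxcl13 (1.11), Slc26a10 (1.09), H2-Ea (0.99), Xkr9 (0.95), Hsd17b7 (0.90), Scarb1 (0.76) and Cst9 (1.17), which was lower than WT at both ages and less so at 2 months. It was negative for Klk1b22 (-2.85), Cd36 (-1.63), Cdca7l (-1.25), Abca1 (-0.88), Gabbr1 (-0.80) and Dnajc2 (-0.51). Olfr63 at 2 weeks was below the dim limit of 4.62 in lrKO and WT, and Klk1b22 was near it.

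Outside the genes with a single symbol, 34 of 13417 probe sets with several symbols or none were called in lrKO versus WT at 2 months, 28 of them higher in lrKO. What they measure is not given here.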

How the results depend on the processing

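The 35 calls of lrKO versus WT at 2 months became 145 with array weights, 78 with only the groups compared, 83 with all 8 groups in one fit, 54 with the replicate block, 133 against WT replicates 1 to 4 alone and 22 against WT replicates 5 to 8 alone. Leaving out 1 array gave 16 (lrKO replicate 2) to 38 (WT replicate 8). Leaving out the arrays above 5 in Adam7 gave 24, and the filter, probe set, scaling and eBayes alternatives gave 29 to 38. The replicate numbers do not pair the arrays (correlations of deviations 0.088, -0.027, 0.051 and 0.003 for numbers 1 to 4, and 0 of 4 lrKO arrays matched their own number best), and 14 of the 35 genes were shared with the 54 of the block. No lrKO array is numbered 5 to 8, so with the block lrKO is compared with WT replicates 1 to 4 only. The median log2 difference is therefore the same in both settings (-0.0217, and 0.0037 for the change between ages). The block is thus no separate choice of WT arrays. For the change between ages, 19 calls became 50 with array weights, 49 with the replicate block, 87 with WT replicates 1 to 4 alone and 12 with WT replicates 5 to 8 alone, and leaving out 1 array gave 11 (lrKO replicate 3 at 2 weeks) to 20 (WT replicate 8 at 2 months). For the WT sets against each other, 172 calls became 886 with array weights, 407 with only those groups, 287 with all 8 groups and 70 without the arrays above 5 in Adam7, and leaving out 1 array gave 42 (WT replicate 8) to 107 (WT replicate 5). The counts of lrKO versus srKO and versus prKO stayed within 1.5 times under every alternative (4278 and 7713 with the replicate block). Of the 27 called genes of the naming rule, all kept their direction and 6 were called under every alternative in which they were tested (Sema7a, Alb, Cdca7l, Itih2, Abca1 and Xkr9, which the stricter filter left out), while 9 of 100 uncalled ones were called under at least 1. Where a count moved, the cause was not tested. With 4 lrKO arrays, differences below those called may have been missed, and genes near 4.62 are close to the dim end of the arrays.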
